A study of Mus musculus with 9 samples.

Results

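The 8 genes described here, Nr4a1, Klf4, Treml4, Ace, Adgre4, Spn, Csf1r and Itgax, are genes by which mouse nonclassical monocytes are recognised or on which these cells depend. They were given by name, and each was represented by its brightest probe set on average over the 9 arrays, among those annotated to exactly 1 gene symbol. All 8 genes were measured, out of 18194 genes on the array, and no filter on low values was applied. Blood of C57BL/6 mice, 8 to 9 weeks old, was measured on 1 array per animal, with 3 animals per group. PT+HS mice received a polytrauma, which combined a head injury, a broken femur and a blunt chest trauma, and then a hemorrhage that held the mean arterial pressure at 30 mmHg for 60 min, after which 4 times the drawn volume was given as fluid over 30 min. PT mice received the polytrauma alone, and both injured groups were sampled 4 h after it. Ctrl mice were not manipulated and were bled as soon as they were anesthetized.

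Several features of this design limit what a difference can be assigned to. The injured animals stayed anesthetized until sampling, received buprenorphine and, as the methods describe the procedure, carried catheters, so that trauma, anesthesia and analgesia cannot be told apart in a comparison with Ctrl. Blood loss, fluid and the norepinephrine used to hold the pressure cannot be told apart in the comparison of PT+HS with PT. Blood was drawn directly into RNA-stabilizing tubes, and RNA of all its cells was measured together. A lower value of a monocyte gene can therefore come from fewer monocytes or from less RNA per monocyte, which cannot be told apart in bulk blood.

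Nonclassical monocytes are the Ly6C-low monocytes of mouse blood, which crawl along the inner surface of vessels and clear damaged endothelial cells and debris. They develop largely from the Ly6C-high classical monocytes, which leave the blood for inflamed tissue, and their formation and survival require the nuclear receptor encoded by Nr4a1 and signals through the CSF1 receptor. No gene of the set is restricted to these cells. Nr4a1 is also induced rapidly in stimulated lymphocytes and other leukocytes, Spn is expressed on T cells, Csf1r on all monocytes, and Itgax on dendritic cells.

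Nr4a1, Klf4, Treml4 and Adgre4 carried the differences between groups described below, and the 250 bases before the annotated start of each are shown for this reason. The sequences come from the RefSeq promoter table of GRCm38.p6, in which 7 of the 8 genes, all but Csf1r, had an entry. The windows were chr15:101266596-101266845 for Nr4a1 on the plus strand, chr4:55532476-55532725 for Klf4 on the minus strand, chr17:48264045-48264294 for Treml4 on the plus strand and chr17:55749734-55749983 for Adgre4 on the plus strand. Each runs 5′ to 3′ along its own strand, and capitals mark matches to a searched motif.
Nr4a1: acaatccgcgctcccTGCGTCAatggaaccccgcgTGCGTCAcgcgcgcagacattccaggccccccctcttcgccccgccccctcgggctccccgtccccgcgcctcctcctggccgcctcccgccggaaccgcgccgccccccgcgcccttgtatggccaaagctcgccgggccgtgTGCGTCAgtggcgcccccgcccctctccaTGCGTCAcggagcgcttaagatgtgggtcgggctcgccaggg
Klf4: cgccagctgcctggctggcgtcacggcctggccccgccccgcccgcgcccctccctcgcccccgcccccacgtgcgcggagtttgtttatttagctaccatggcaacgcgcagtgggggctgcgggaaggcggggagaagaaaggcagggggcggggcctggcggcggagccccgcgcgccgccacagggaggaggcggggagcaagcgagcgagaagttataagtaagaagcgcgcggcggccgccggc
Treml4: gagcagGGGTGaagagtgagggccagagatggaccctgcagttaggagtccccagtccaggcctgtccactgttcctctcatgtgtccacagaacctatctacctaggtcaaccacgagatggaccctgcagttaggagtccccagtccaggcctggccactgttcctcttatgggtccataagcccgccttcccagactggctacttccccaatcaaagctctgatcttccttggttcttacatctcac
Adgre4: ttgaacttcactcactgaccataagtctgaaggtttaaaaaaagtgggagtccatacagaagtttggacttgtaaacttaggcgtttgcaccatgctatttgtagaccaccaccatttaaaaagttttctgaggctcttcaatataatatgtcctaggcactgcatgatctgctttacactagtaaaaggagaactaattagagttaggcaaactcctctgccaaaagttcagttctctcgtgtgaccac
Both strands were searched for TGCGTCA, a variant of the motif bound by CREB and AP-1 factors, for the AP-1 motif TGANTCA, for the NR4A monomer motif AAAGGTCA and for CACCC, the core bound by KLF factors. TGCGTCA was added to the search after the sequences had been read. The Nr4a1 window held TGCGTCA 4 times, 235, 215, 71 and 42 bases before the start. Of 32851 windows of the same length 574 (1.75%) held this motif at all, and only the Nr4a1 window (0.00304%) held it 4 or more times. The Treml4 window held CACCC once, read as GGGTG on the strand shown and 244 bases before the start, and 17087 windows (52%) held this motif at least once. The Klf4 and Adgre4 windows held none of the 4 motifs. TGANTCA occurred in 2217 windows (6.75%) and AAAGGTCA in 439 (1.34%). The windows also differed in composition, with a GC content of 74.4% in Nr4a1, 74% in Klf4, 55.6% in Treml4 and 39.6% in Adgre4, against a median of 52.4% over all windows. A match of letters was recorded as a description of the window and shows neither binding nor regulation.

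The deposited values are on a log2 scale and were normalized between arrays by the authors, so that a difference of 1 is a doubling of signal. Array medians lay between 3.63 and 3.76. Differences were tested with limma on all 9 arrays, and a gene passed at the thresholds of the study, which are 0.05 for the unadjusted p and 1.5-fold for the change. Benjamini-Hochberg adjusted p-values over all 18194 genes are given beside them. PT replicate 2 stood apart, with correlations of 0.912 to 0.949 to the other arrays across genes, whereas the other 8 arrays correlated at 0.961 or more, and results are therefore also given without it. Marker genes of monocytes were well represented, with an average log2 level of 11 shared monocyte genes between 8.58 and 8.97 in PT+HS, 7.85 and 9.23 in PT and 7.76 and 8.20 in Ctrl. Neither the labels nor the methods name a batch, and values within batches could not be computed.

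All 8 genes had a lower mean in PT than in Ctrl. Nr4a1, Klf4, Treml4 and Adgre4 passed the thresholds as lower, which 2.26% of all genes did. In these 4 genes every PT animal lay below every Ctrl animal, as in 5.12% of all genes. Their PT levels were between 30.3% and 52.0% of the Ctrl levels. In PT+HS all 8 genes had a higher mean than in PT, and Nr4a1, Klf4 and Treml4 passed. No gene of the set passed between PT+HS and Ctrl.

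**Figure D1:**
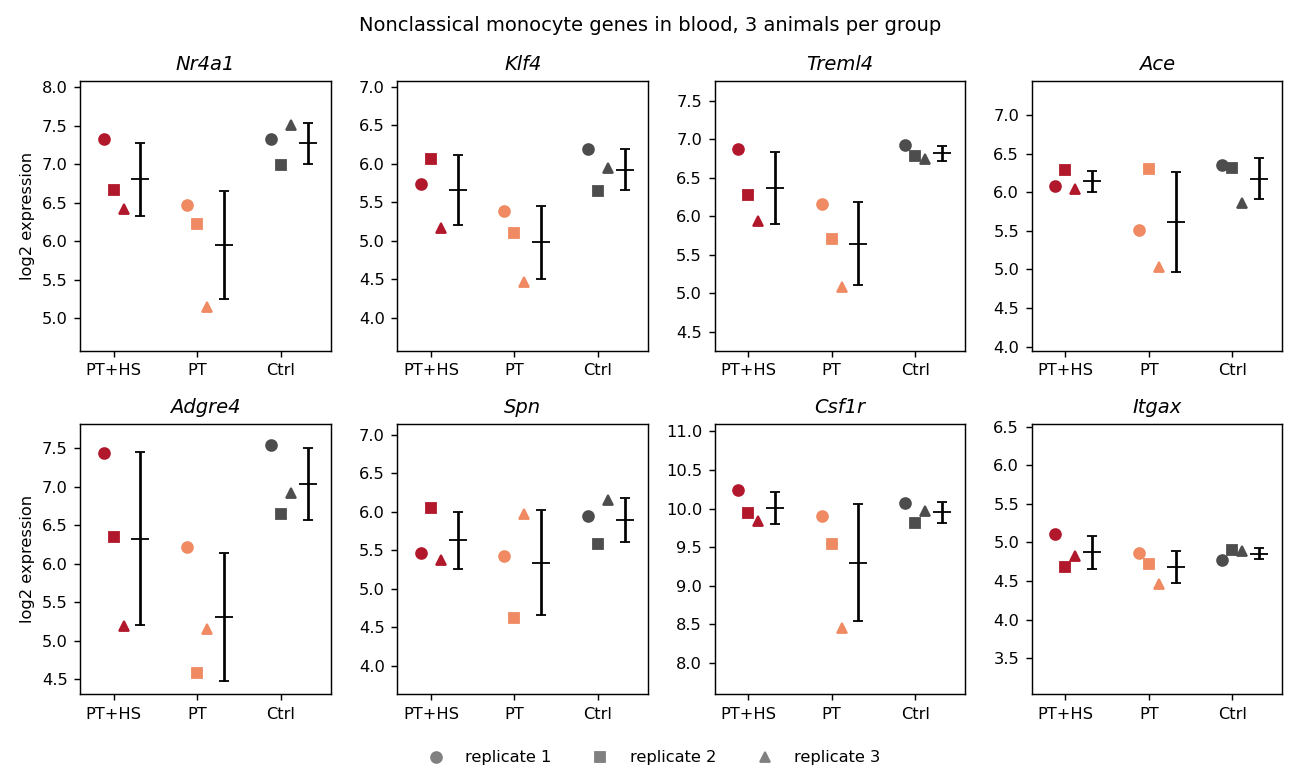
Log2 expression of the 8 genes in each animal of PT+HS, PT and Ctrl, with the mean and SD of the 3 animals beside the points and symbols marking replicate numbers. All axes span the same log2 range, and Nr4a1, Klf4, Treml4 and Adgre4 show 3 PT animals below all Ctrl animals, with PT replicate 3 lowest in 6 of the 8 genes.

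Nr4a1 encodes the orphan nuclear receptor NUR77, which Ly6C-low monocytes need in order to form. Its log2 values were 7.33, 6.66 and 6.42 in PT+HS animals 1 to 3, 6.47, 6.23 and 5.15 in PT animals, and 7.33, 6.98 and 7.51 in Ctrl animals. All PT animals lay below all Ctrl animals, while PT+HS replicate 1 reached the Ctrl range and PT+HS replicate 3 lay within the PT range. The means were 6.81 ± 0.47 in PT+HS, 5.95 ± 0.70 in PT and 7.27 ± 0.27 in Ctrl (SD, n = 3 each). The PT mean differed from Ctrl by -1.32 (standard error 0.35, unadjusted p = 0.00401, adjusted p = 0.537 from limma), which is 2.50-fold lower. PT+HS exceeded PT by 0.86 (standard error 0.35, unadjusted p = 0.0366, adjusted p = 1.0 from limma), which is 1.81-fold.

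Klf4, a zinc finger transcription factor of monocyte differentiation, had log2 values of 5.74, 6.06 and 5.16 in PT+HS, 5.38, 5.10 and 4.46 in PT, and 6.19, 5.64 and 5.95 in Ctrl. Again no PT animal reached a Ctrl animal, and PT+HS overlapped both groups, with means of 5.65 ± 0.45 in PT+HS, 4.98 ± 0.47 in PT and 5.93 ± 0.27 in Ctrl (SD, n = 3 each). Klf4 was 1.92-fold lower in PT than in Ctrl (difference -0.94, standard error 0.30, unadjusted p = 0.00980, adjusted p = 0.686 from limma). It was 1.59-fold higher in PT+HS than in PT (difference 0.67, standard error 0.30, unadjusted p = 0.0464, adjusted p = 1.0 from limma), with a 95% interval of 0.01 to 1.33 that nearly reached 0. A further probe set of Klf4 gave 0.86 between PT+HS and PT and -1.11 between PT and Ctrl, and passed in both.

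Treml4 encodes a receptor of the TREM family that marks Ly6C-low monocytes in mouse blood. Its log2 values were 6.87, 6.28 and 5.95 in PT+HS, 6.16, 5.70 and 5.08 in PT, and 6.93, 6.79 and 6.75 in Ctrl. All PT animals lay below all Ctrl animals, and PT+HS spanned from within the Ctrl range into the PT range. The means were 6.37 ± 0.47 in PT+HS, 5.65 ± 0.54 in PT and 6.82 ± 0.098 in Ctrl (SD, n = 3 each), the Ctrl animals lying closest together. Treml4 was 2.26-fold lower in PT than in Ctrl (difference -1.17, standard error 0.30, unadjusted p = 0.00299, adjusted p = 0.474 from limma), the smallest p of the set. It was 1.65-fold higher in PT+HS than in PT (difference 0.72, standard error 0.30, unadjusted p = 0.0377, adjusted p = 1.0 from limma).

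Adgre4, an adhesion G protein-coupled receptor found on myeloid cells, showed the largest mean differences of the set and the widest spread. Its log2 values were 7.44, 6.35 and 5.19 in PT+HS, 6.22, 4.58 and 5.15 in PT, and 7.55, 6.64 and 6.92 in Ctrl. PT animals lay below all Ctrl animals, while PT+HS reached from the upper end of Ctrl to the PT animals, and the means were 6.33 ± 1.12 in PT+HS, 5.32 ± 0.83 in PT and 7.04 ± 0.46 in Ctrl (SD, n = 3 each). Adgre4 was 3.30-fold lower in PT than in Ctrl (difference -1.72, standard error 0.56, unadjusted p = 0.0122, adjusted p = 0.710 from limma). The difference between PT+HS and PT was 1.01 with a 95% interval of -0.24 to 2.26 and did not pass. A further probe set of Adgre4 gave -2.01 between PT and Ctrl, which passed, and 1.07 between PT+HS and PT, which did not.

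Csf1r encodes the receptor for CSF1 and IL-34, on which monocytes depend for survival. It had log2 values of 10.24, 9.94 and 9.83 in PT+HS, 9.90, 9.54 and 8.45 in PT, and 10.07, 9.81 and 9.97 in Ctrl. Only PT replicate 3 was far below the others, and PT replicate 1 lay within the Ctrl range. The difference was 0.71 between PT+HS and PT (95% interval -0.01 to 1.44, unadjusted p = 0.0540 from limma) and -0.65 between PT and Ctrl (95% interval -1.38 to 0.07). Neither passed. Without PT replicate 3 the difference between PT and Ctrl was -0.23, and without PT replicate 1 it was -0.96 and passed (unadjusted p = 0.0133 from limma). The other probe sets of Csf1r gave 0.52 and 0.51 between PT+HS and PT and -0.23 and -0.32 between PT and Ctrl.

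Ace encodes angiotensin-converting enzyme, a peptidase that nonclassical monocytes carry on their surface. Its log2 values were 6.08, 6.30 and 6.05 in PT+HS, 5.51, 6.31 and 5.03 in PT, and 6.36, 6.31 and 5.87 in Ctrl. PT replicate 2, the array that stood apart, was as high as the Ctrl animals, and the other PT animals lay below all animals of both other groups. The difference between PT and Ctrl was -0.56 (95% interval -1.23 to 0.10) and that between PT+HS and PT 0.53 (95% interval -0.14 to 1.19). Without PT replicate 2 they were -0.91 and 0.87 and both passed, with unadjusted p = 0.00208 and 0.00273 from limma. Without PT replicate 3 they were -0.27 and 0.23, and neither passed. A further, dimmer probe set of Ace gave 0.22 between PT and Ctrl and 0.03 between PT+HS and PT, so that the probe sets of Ace disagreed in the direction of the first.

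Spn encodes CD43, a heavily glycosylated surface protein that is high on nonclassical monocytes and on T cells. It had log2 values of 5.46, 6.05 and 5.38 in PT+HS, 5.43, 4.62 and 5.98 in PT, and 5.94, 5.58 and 6.16 in Ctrl. Unlike in the 6 genes in which PT replicate 3 was the lowest array, this animal had the highest Spn value of its group. It also had the highest average log2 level of 7 T cell genes of all 9 arrays, 8.90 against 6.64 and 7.82 in the other PT animals, and the part of these cells in the Spn value was not tested. The difference was 0.29 between PT+HS and PT (95% interval -0.46 to 1.04) and -0.55 between PT and Ctrl (95% interval -1.30 to 0.20). Leaving out PT replicate 3 gave -0.87 between PT and Ctrl, which passed (unadjusted p = 0.0194 from limma), and leaving out PT replicate 2 gave -0.19. A further probe set of Spn gave -0.08 between PT+HS and PT and -0.25 between PT and Ctrl. In that probe set PT replicate 3 was not the highest of its group, with 4.73 against 4.99 in PT replicate 1 and 4.63 in PT replicate 2.

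Itgax encodes CD11c, an integrin chain of nonclassical monocytes and dendritic cells. All 9 log2 values lay between 4.46 and 5.11, and the groups overlapped. The difference was 0.19 between PT+HS and PT (95% interval -0.20 to 0.59) and -0.18 between PT and Ctrl (95% interval -0.57 to 0.22), and neither passed. The standard error of 0.18 was the smallest of the set.

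**Figure D2:**
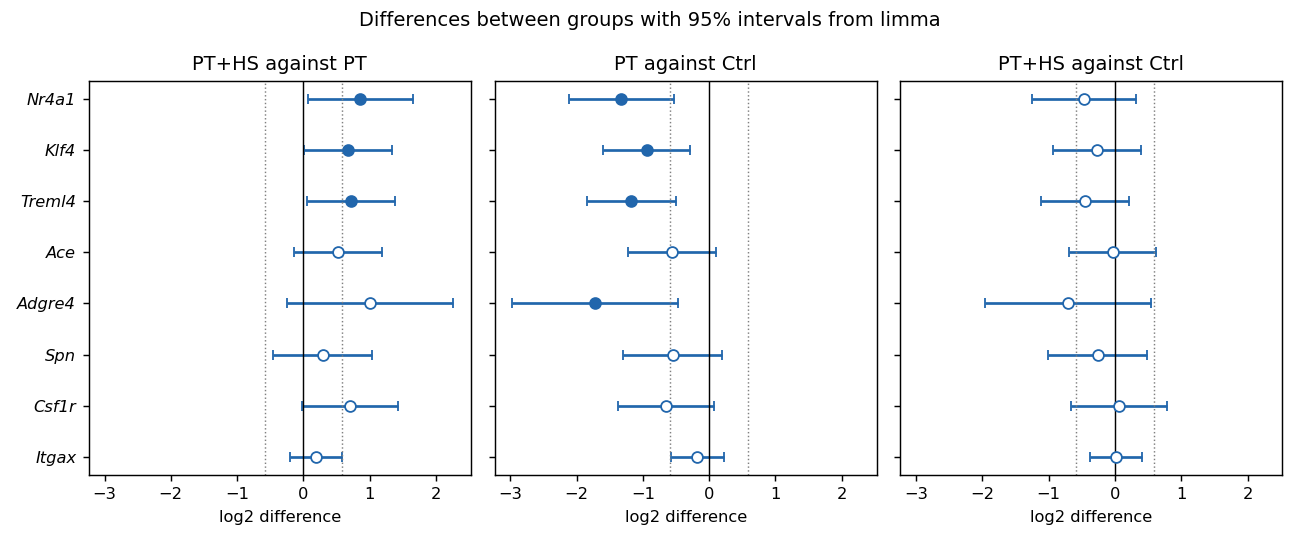
Log2 differences of the 8 genes between PT+HS and PT, PT and Ctrl, and PT+HS and Ctrl, with 95% intervals from limma, filled points for genes past the thresholds and dotted lines at a 1.5-fold change. Filled points are Nr4a1, Klf4 and Treml4 to the right of 0 in PT+HS against PT and these together with Adgre4 to the left of 0 in PT against Ctrl, and all intervals of PT+HS against Ctrl include 0.

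The comparison of PT with Ctrl asked how blood changed after the trauma procedure. Of the 8 genes 4 passed as lower (Nr4a1, Klf4, Treml4, Adgre4), whereas 411 of all 18194 genes (2.26%) passed in this direction. The same 4 genes had no overlap between groups, and 932 of all genes (5.12%) were lower without overlap. The 8 genes had a median difference of -0.80, against -0.00025 over all genes. None of the 18194 genes (0%) had an adjusted p under 0.05 from limma or from the methods' t-test. An unadjusted p under 0.05 in limma was reached by 1058 genes (5.82%). The 4 genes kept passing under each alternative setting and with each array left out, with the exception of Adgre4 (-0.96) under array weights, which rest for 86.9% of the PT mean on PT replicate 1. Without PT replicate 2 the differences were -1.46 in Nr4a1, -1.0 in Klf4, -1.20 in Treml4 and -1.35 in Adgre4.

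The comparison of PT+HS with PT concerns the additional hemorrhagic shock with its resuscitation. Of the 8 genes 3 passed as higher in PT+HS (Nr4a1, Klf4, Treml4), whereas 132 of all genes (0.726%) did. All 3 overlapped between the groups. None of the 8 was higher without overlap, and 656 of all genes (3.61%) were, a share so small that none of 8 does not set these genes apart. The 8 genes had a median of 0.69, against -0.0031 over all genes. No gene (0%) had an adjusted p under 0.05 from limma or the methods' t-test. An unadjusted p under 0.05 in limma was reached by 522 genes (2.87%), a smaller share than this threshold itself passes where no gene differs. This comparison and the preceding one share the PT animals, so that a low PT mean enters both.

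The 3 calls between PT+HS and PT depended on single arrays. Without PT replicate 3, which had the lowest value in 6 of the 8 genes, the differences were 0.46 in Nr4a1, 0.41 in Klf4 and 0.44 in Treml4, and none passed. None of the 8 passed without PT+HS replicate 1 or PT+HS replicate 2 either. Leaving out a Ctrl array does not change these differences, only the estimate of spread behind the p. None of the 8 passed without Ctrl replicate 1, with unadjusted p = 0.0501 in Nr4a1, 0.0537 in Klf4 and 0.0504 in Treml4 from limma. Nr4a1 alone passed without Ctrl replicate 2 or Ctrl replicate 3. Without PT replicate 1 these 3 genes passed with Adgre4 (1.46) and Csf1r (1.01). Without PT replicate 2, the array that stood apart, they passed with Ace (0.87) and Csf1r (0.83), and without PT+HS replicate 3 with Adgre4 (1.58). None of the 8 passed either with the methods' t-test, with only the arrays of these groups or after repeated quantile normalization, and with array weights Ace alone did (0.64). With each array left out in turn, the sign of the difference stayed positive for all genes but Spn, which was -0.07 without PT replicate 2.

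**Figure D3:**
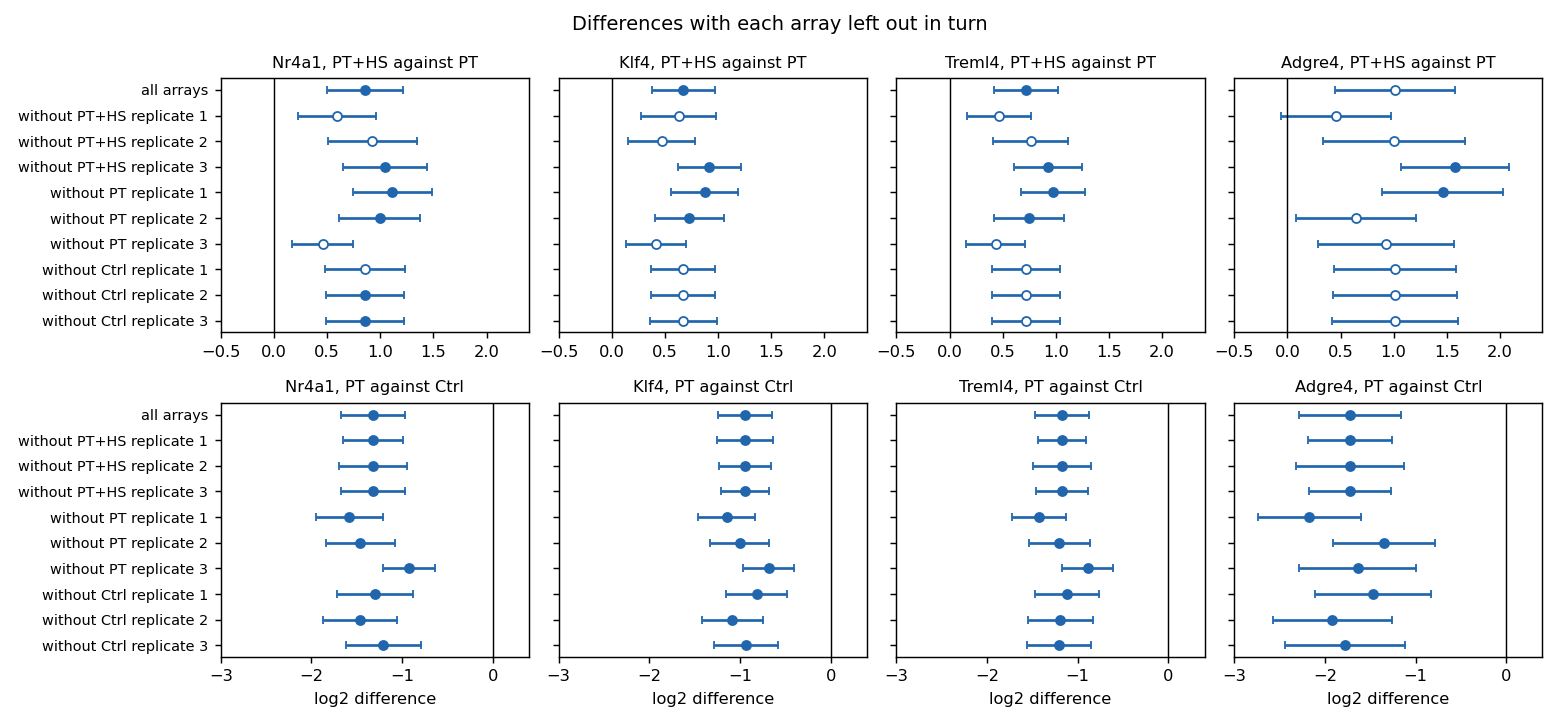
Log2 differences of Nr4a1, Klf4, Treml4 and Adgre4 between PT+HS and PT (upper row) and between PT and Ctrl (lower row), with all arrays and with each array left out in turn, with standard errors from limma and filled points where the gene passed the thresholds. All points of the lower row are filled, whereas in the upper row the differences of Nr4a1, Klf4 and Treml4 between 0.41 and 0.46 without PT replicate 3 are open.

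No gene of the set differed past the thresholds between PT+HS and Ctrl, whose arrays enter the other comparisons too. None of the 8 passed as lower, and 234 of all genes (1.29%) did. None was lower without overlap, and 1216 of all genes (6.68%) were. At shares this small, none of 8 does not set these genes apart from the rest. The differences were -0.47 in Nr4a1, -0.27 in Klf4, -0.45 in Treml4 and -0.71 in Adgre4, and the 95% interval of Adgre4 extended from -1.96 to 0.54. Ace, Csf1r and Itgax had differences of -0.04, 0.06 and 0.02, with intervals of -0.70 to 0.63, -0.67 to 0.78 and -0.38 to 0.41. The 8 genes had a median of -0.27, and all genes -0.01. An adjusted p under 0.05 from limma was reached by 1 gene (0.0055%), the neutrophil collagenase Mmp8, and 885 genes (4.86%) had an unadjusted p under 0.05. Without PT+HS replicate 1, the PT+HS animal with the highest Nr4a1, Treml4, Adgre4, Csf1r and Itgax, Treml4 differed from Ctrl by -0.71 and Adgre4 by -1.27, and both passed.

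Across the 9 arrays Nr4a1, Klf4, Treml4 and Adgre4, the genes that passed between PT and Ctrl, varied together. They were chosen by a group difference in these same arrays, so that high correlations over the arrays follow in part from the choice. Their 6 pairwise Pearson correlations were between 0.81 and 0.97, and with the group means removed between 0.58 and 0.91. The closest pair was Nr4a1 with Treml4, at 0.97 over the arrays and 0.91 within groups, and Nr4a1 with Csf1r reached 0.90 and 0.93. Spn had correlations from -0.25 (Ace) to 0.54 (Adgre4) with the other 7 genes. All 28 pairs had a median of 0.67, and with the group means removed they ranged from -0.76 to 0.93 with a median of 0.46. Within groups the 4 genes did not stand apart, since Treml4 had 0.88 with Csf1r and 0.83 with Itgax. These values describe 9 arrays that share the group differences and the composition of each blood sample.

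Among 9089 genes with a mean above the median of all gene means, the profile most like that of Nr4a1 was Atf3, a stress-induced transcription factor, with a Pearson correlation of 0.96 over the 9 arrays. Nxpe4 and Kcnc1 followed with 0.92 and 0.91. Atf3 spanned only 4.45 to 4.92 on the log2 scale, with PT replicate 3 lowest and Ctrl replicate 3 highest, as in Nr4a1. Treml4 was matched most closely by Nxpe4 (0.95), Slitrk3 (0.92) and Atf3 (0.92). For Csf1r they were Slitrk3 (0.95), Ifi30 (0.94), which encodes a lysosomal thiol reductase of antigen-presenting cells, and Agpat4 (0.93). Slitrk3 spanned only 4.01 to 4.53, close to the median of all gene means of 4.29. These are the highest of 9089 correlations over 9 arrays, and how high such a search reaches among unrelated genes was not tested. Nxpe4 had log2 values of 6.28, 5.68 and 4.92 in PT+HS, 5.33, 5.18 and 4.62 in PT, and 6.42, 5.86 and 6.08 in Ctrl, so that its PT animals lay below all Ctrl animals too.

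Of 16 other genes associated with nonclassical monocytes 15 were measured. Between PT and Ctrl, 3 passed as lower, which 2.26% of all genes did, and none as higher. Cx3cr1, the fractalkine receptor by which these cells are commonly identified, had log2 values of 5.79, 5.74 and 4.78 in PT+HS, 4.56, 5.11 and 4.84 in PT, and 6.20, 5.73 and 6.45 in Ctrl, and differed between PT and Ctrl by -1.29. The sphingosine 1-phosphate receptor S1pr5, needed for the exit of these monocytes from bone marrow, differed by -0.84 and the enolase Eno3 by -0.96. The values of S1pr5 were low, from 2.86 to 3.84 on all arrays, below the median of all gene means of 4.29. All PT animals lay below all Ctrl animals in these 3 genes, as in 5.12% of all genes. The list had a median of -0.28 in this comparison.

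None of the 15 passed between PT+HS and PT, and 14 had a positive difference, with a median of 0.39. S1pr5 was nearest with 0.50 (unadjusted p = 0.0116 from limma), below a 1.5-fold change, and Cx3cr1 had 0.60. Against Ctrl, PT+HS had 4 of the 15 past the thresholds, 2 higher (1.99% of all genes) and 2 lower (1.29%). Cx3cr1 and Eno3 were lower by differences of -0.69 and -0.74. The Fc receptor Fcgr4 and the transcription factor Cebpb, which is required for Ly6C-low monocytes and is also expressed in neutrophils, were higher by 1.27 and 1.16. S1pr5 and Cx3cr1 are also expressed by NK cells, and 3 of 6 NK cell genes passed as lower between PT and Ctrl, with average log2 levels of 6.05 to 6.38 in PT+HS, 5.43 to 6.02 in PT and 6.45 to 6.73 in Ctrl. The part of NK cells in these values was not tested.

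Several genes of classical monocytes were higher in the injured groups. Of 8 such genes 6 were measured, and between PT and Ctrl 3 passed as higher and none as lower, with a median of 1.08, whereas 257 of all genes (1.41%) passed as higher. Vcan, a proteoglycan of classical monocytes, differed by 3.31, Ccr2, the chemokine receptor with which they leave the bone marrow, by 1.36, and the chitinase-like Chil3 by 1.68. Vcan varied widely in PT, with log2 values of 8.46, 6.66 and 4.56 (SD 1.95). Chil3 varied widely in Ctrl, with 9.16, 6.51 and 6.56, as did the neutrophil gene Ngp, with 8.68, 4.10 and 5.32. The part of neutrophils in the Chil3 value was not tested. In PT+HS 4 of the 6 passed as higher than in Ctrl (median 1.43), and 362 of all genes (1.99%) did. Ccr2 had log2 values of 10.06, 9.65 and 9.79 in PT+HS, 10.42, 9.06 and 9.16 in PT, and 8.83, 7.38 and 8.36 in Ctrl, and all injured animals lay above all Ctrl animals. None of the 6 passed between PT+HS and PT, where the median was 0.26.

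Of 12 genes shared by monocytes 11 were measured, and 3 passed as higher in each injured group against Ctrl. These were Cd14, the co-receptor for lipopolysaccharide, with differences of 2.56 in PT+HS and 1.75 in PT, the high-affinity Fc receptor Fcgr1 with 1.97 and 1.71, and Ms4a6c with 1.26 and 1.10. Medians were 0.64 and 0.25, and none of the 11 passed between PT+HS and PT. Neutrophils also express Cd14, and of 11 neutrophil genes 7 passed as higher in PT+HS and 6 in PT against Ctrl. The part of neutrophils in the Cd14 value was not tested.

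**Figure D4:**
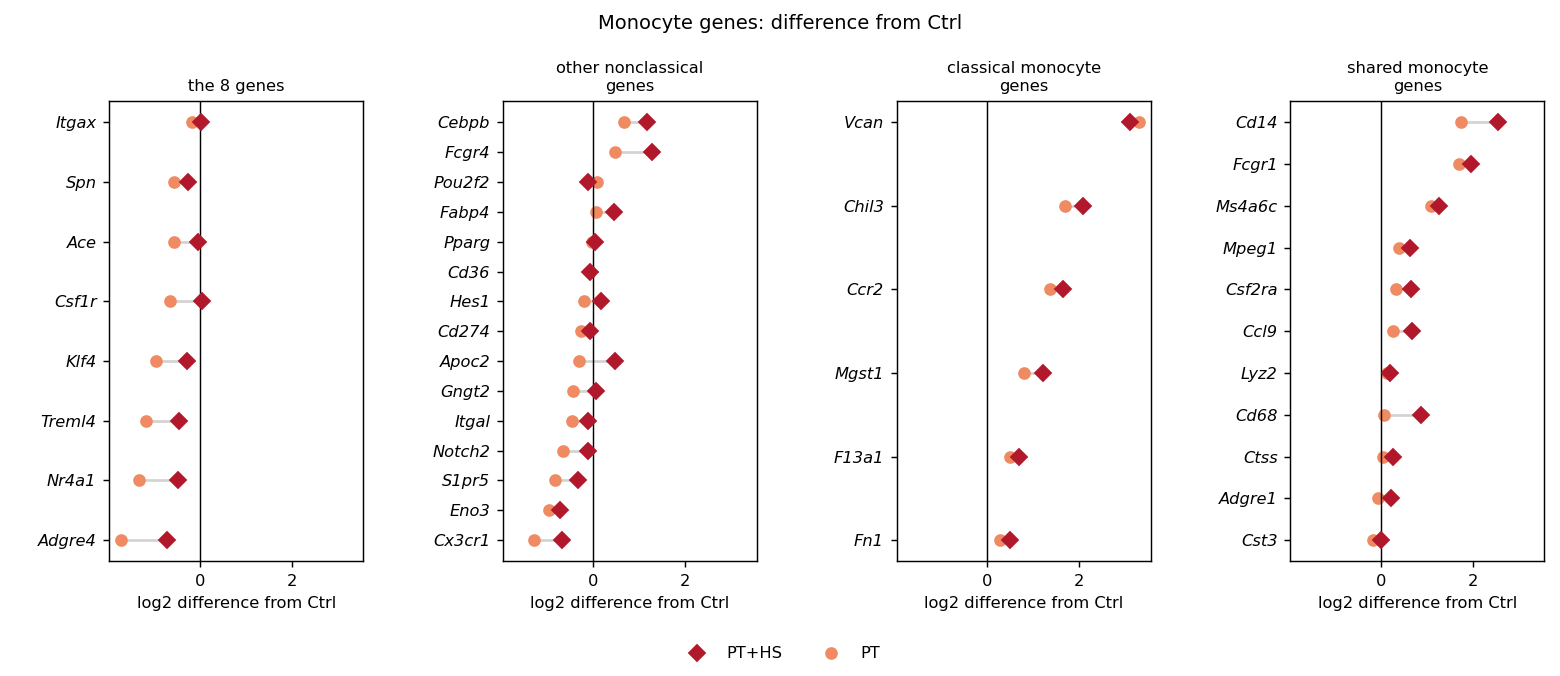
Log2 differences from Ctrl in PT+HS (diamonds) and PT (circles) for the 8 genes, 15 other nonclassical, 6 classical and 11 shared monocyte genes, each list ordered by its PT value. The 8 genes lie at or left of 0 in PT, with Adgre4 at -1.72, whereas the classical genes lie right of 0 in both groups, up to Vcan at 3.31 in PT.

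Set against the average of the 11 shared monocyte genes on the same array, all 8 genes had lower means in both injured groups than in Ctrl. The average difference of the relative values ranged from -0.79 (Csf1r) to -1.56 (Adgre4) in PT+HS and from -0.68 (Itgax) to -2.22 (Adgre4) in PT. Nr4a1 lay -1.64, -1.91 and -2.29 from the shared average in PT+HS, -2.76, -1.92 and -2.70 in PT, and -0.87, -0.77 and -0.26 in Ctrl, and the injured animals did not overlap with Ctrl. From PT, the PT+HS means differed by -0.15 (Itgax) to 0.67 (Adgre4). PT replicate 1 had the highest shared monocyte average of all arrays, 9.23, and PT replicate 3 the lowest of its group, 7.85. These ratios are descriptions without a test, and they move with Cd14, Fcgr1 and Ms4a6c, which were themselves higher in the injured groups.

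**Figure D5:**
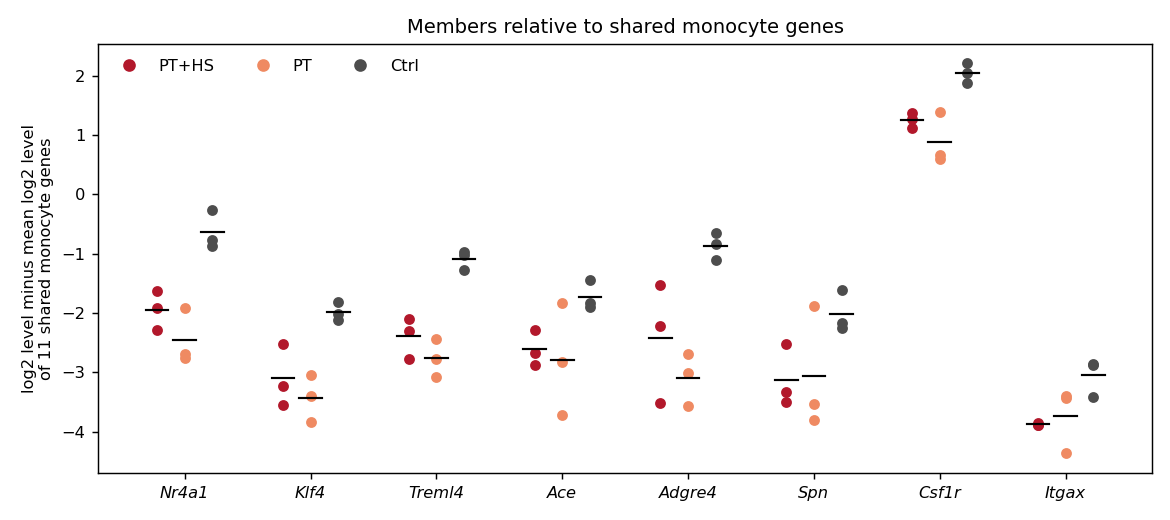
Log2 level of each of the 8 genes minus the average log2 level of 11 shared monocyte genes on the same array, for each animal of PT+HS, PT and Ctrl, with group means as lines. The 3 Ctrl animals lie above all injured animals in Nr4a1, Klf4, Treml4, Adgre4 and Csf1r, with Nr4a1 means of -1.95 in PT+HS, -2.46 in PT and -0.63 in Ctrl.

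Transcription factors of the monocyte lineage were measured for 11 of 12 genes. Cebpa, which directs myeloid differentiation, was the only factor past the thresholds between PT+HS and PT, with log2 values of 7.30, 6.61 and 6.98 in PT+HS and 6.00, 5.12 and 6.28 in PT and a difference of 1.16. The groups did not overlap. Irf4, a factor of lymphocytes and dendritic cells, was the only one that passed between PT and Ctrl, with -0.90, and it had -1.15 between PT+HS and Ctrl, where 6 of 7 B cell genes also passed as lower. In PT+HS 4 of the 11 factors passed as higher than in Ctrl, which 1.99% of all genes did. Among these 4, Maf exceeded Ctrl by 0.89 and Cebpb by 1.16.

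Of the ligands of the CSF1 receptor and related growth factor receptors 7 of 8 were measured. Csf1, a ligand of this receptor, had log2 values of 4.77, 4.97 and 5.27 in PT+HS, 4.97, 5.65 and 5.29 in PT, and 4.25, 4.55 and 4.65 in Ctrl. All injured animals lay above all Ctrl animals, and the difference from Ctrl was 0.52 in PT+HS, below a 1.5-fold change, and 0.82 in PT, which passed. Csf2rb, the shared chain of the receptors for GM-CSF, IL-3 and IL-5, exceeded Ctrl by 2.21 in PT+HS and 1.73 in PT. Csf3r, the G-CSF receptor of neutrophils, and Flt3 passed in PT+HS against Ctrl with 1.29 and 0.70.

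The 8 genes have relatives that were measured as well. Nr4a2 and Nr4a3, the other NR4A receptors, are given here outside the naming rule and after their values were seen. They had differences of 0.10 and -0.22 between PT+HS and PT and of -0.10 and 0.12 between PT and Ctrl, and neither passed. Of 14 measured relatives Trem1 and the integrin chain Itgam were higher than in Ctrl in PT+HS (1.31 and 1.04) and in PT (1.18 and 0.93). Treml2 and Adgre5, which encodes CD97, were lower in PT than in Ctrl by -0.93 and -0.85, and Adgre5 exceeded PT by 0.67 in PT+HS. Nr4a1 is itself an immediate early gene, and of 13 others 1 passed between PT and Ctrl, Egr1 as higher by 0.93, and 3 between PT+HS and Ctrl, Junb, Egr1 and Zfp36 by 1.29, 0.60 and 1.17. None passed between PT+HS and PT.

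Markers of other blood cells differed from Ctrl as well, and of all genes in the lists only Mmp8 had an adjusted p under 0.05 from limma, in PT+HS against Ctrl (0.0306). Among 7 B cell genes 6 passed as lower in PT+HS and 6 in PT against Ctrl, with Fcer2a at -2.31 and -2.18. Il1r2 and Cxcr2 of neutrophils exceeded Ctrl, Il1r2 by 4.61 in PT+HS and 4.09 in PT and Cxcr2 by 1.99 in PT+HS and 1.46 in PT. The average log2 level of the neutrophil genes was 8.48 to 9.83 in PT+HS, 7.90 to 9.42 in PT and 6.75 to 8.32 in Ctrl, with overlap of PT and Ctrl. That of the B cell genes was 5.61 to 6.13 in PT+HS, 5.38 to 6.84 in PT and 6.92 to 7.81 in Ctrl, without overlap. No T cell, platelet or erythroid gene passed in any comparison, and of 6 dendritic cell genes Flt3 alone did. The 6 platelet genes all had positive differences between PT+HS and PT (median 0.26) and negative ones between PT and Ctrl (median -0.38), with an average log2 level of 10.29 to 10.55 in PT+HS, 10.09 to 10.29 in PT and 10.46 to 10.66 in Ctrl. Gzma, a granzyme of NK cells, was the only marker of these other cell lists past the thresholds between PT+HS and PT, with 1.03. The part of these differences in the values of the 8 genes was not tested.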

How the data were processed

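Blood RNA of 3 PT+HS, 3 PT and 3 Ctrl mice was compared, 1 array per animal, and p-values measure the spread between these animals. The deposited log2 values were made by the authors with the robust multiarray average, which corrects background, normalizes arrays and summarises probe sets. An array type with probes along whole transcripts (Mouse Gene ST) is stated in the paper, whereas the deposited probe set names belong to another Affymetrix mouse array, whose annotation was used. Of 45101 probe sets, 34958 had exactly 1 symbol. The probe set with the highest mean was taken for each of 18194 genes.

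limma 3.58.1 in R 4.3.3 was fitted with a mean per group and 3 contrasts, with two-sided moderated tests. The fit was tested on simulated data. The 8 genes, the lists and the tests were chosen with earlier results of these data known. Named are the 8 genes, of each list at most 3 genes past the thresholds per comparison by the smallest p and otherwise the gene with the smallest p where described, and the 3 genes most correlated with Nr4a1, Treml4 and Csf1r. Alternatives were the methods' t-test, only the arrays compared, a variance trend, array weights, equal medians, repeated quantile normalization, genes above the median, a mean over probe sets, every probe set, a replicate block and leaving out each array.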

Additional observations from a re-analysis of the deposited data

How the results depend on the processing

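Between PT and Ctrl, 4 or 5 of the 8 genes passed under every alternative. Between PT+HS and PT, where 3 passed, none (0) did with the methods' t-test, with only the arrays of the groups compared or with repeated quantile normalization, 1 (Ace, 0.64) did with array weights, and 5 did with a replicate block. With a variance trend 2 passed, Nr4a1 and Csf1r (unadjusted p = 0.0377 and 0.0367 from limma), whereas Klf4 (0.0588) and Treml4 (0.0509) did not, and over genes with a mean above the median 2 passed, Nr4a1 and Treml4, and Klf4 (0.0557) did not. With array weights the differences were 0.47 in Nr4a1, 0.36 in Klf4 and 0.32 in Treml4. Leaving out 1 array at a time gave 0 to 5 between PT+HS and PT and 0 to 2 between PT+HS and Ctrl. With the replicate block, Adgre4 and Csf1r were added between PT+HS and PT, and Csf1r between PT and Ctrl. Replicate numbers were not taken as pairs, because the methods name no pairing. Animals of different groups with the same replicate number had correlations of their deviations from -0.12 to 0.48, of which 3 of 9 were above 0.1. Correlations between unlike numbers were not computed, so that these values do not decide the question. The causes of these changes were not tested.

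Between PT+HS and PT, Spn ranged from -0.073 to 0.61 with 1 array left out. Between PT+HS and Ctrl, Ace was 0.10 with the mean of its probe sets and -0.19 to 0.053 with 1 array left out, Csf1r -0.062 to 0.14 and Itgax -0.10 to 0.11. None of the 8 genes had an adjusted p under 0.05 under any alternative, the smallest being 0.0688 for Ace between PT and Ctrl with array weights. Over all genes, where 204 passed between PT+HS and PT, 668 between PT and Ctrl and 596 between PT+HS and Ctrl, the methods' t-test gave 76, 293 and 542 and array weights 877, 1666 and 837. With 3 animals a group, standard errors of the differences of the 8 genes were 0.18 to 0.56, which sets what could be resolved.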
